A study of Mus musculus with 9 samples.

Results

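The acute phase secreted proteins are plasma and tissue proteins whose synthesis changes in injury, infection and inflammation. The 10 genes described here (Lcn2, Clu, Saa1, Saa2, Saa3, Serpina3n, Hp, Orm1, Ptx3 and Cp) were taken from a list of symbols and matched to transcript clusters, the probe sets that stand for a gene on the array. All 10 were measured, each by 1 transcript cluster, among 19505 gene symbols and 22206 transcript clusters in all. Submandibular glands, a major salivary gland pair of the mouse, came from females of the strain C57BL6/J. The mice were 12 weeks of age, and total RNA of each gland sample was measured on a Clariom S array. There were 3 groups of 3 biological replicates: glands at day 14 after partial resection, glands at day 3 after partial resection, and glands at day 3 after mock surgery. A mock group at day 14 was not analysed here, so at day 14 resection and time since surgery cannot be told apart. The 3 comparisons asked how the glands differed from mock at each day after resection, and how the days differed from each other.

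In the textbook acute phase response, interleukin 6 and its relatives act through the receptor chain gp130 and STAT3, and interleukin 1 and tumour necrosis factor act through NF-kappaB. Both routes, with the C/EBP transcription factors, raise a set of secreted proteins in the liver. Several of these proteins are also made locally by epithelia, fibroblasts, macrophages and neutrophils at sites of injury.

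Levels are log2 values as deposited, and the highest that the table holds is 19.93. How a unit of this scale relates to a true fold in RNA was not calibrated, so differences are given in log2 only. Replicates correlated at 0.985 to 0.99 within groups over all transcript clusters. As a measure of dimness, each value was placed among the 5222 negative control rows of its own array. Aqp5, the water channel of salivary acinar cells, read 13.75 to 15.15 over the 9 arrays. Smr3a, another listed salivary marker, read 3.33 to 4.52, below the median of the negative controls on some arrays. In whole glands, fewer cells of a type and less RNA per cell cannot be told apart.

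At day 3 after resection, 6 of the 10 genes rose against mock surgery (limma, adjusted p under 0.05) and 0 fell. Of all transcript clusters, 4.92% rose and 1.36% fell in that comparison. The 10 genes, and the gene lists used below, were chosen with earlier results of these data known. Their counts beside these shares are therefore a description and not an independent test. These are 1092 higher and 301 lower, against 973 higher and 452 lower after quantile normalization and 1013 higher and 480 lower after median centring. The 6 were Lcn2, Clu, Saa3, Serpina3n, Cp and Hp, and the other 4, Saa1, Saa2, Orm1 and Ptx3, did not pass. The median log2 difference of the 10 genes was 1.63, against -0.06 over all transcript clusters. In each of the 6 genes, every day 3 resected array lay above every mock array, which 11.2% of all transcript clusters also did. The 6 had been picked by the test on the same arrays, so this separation adds no support of its own. At an unadjusted p under 0.05, 10% of all transcript clusters were higher and 8.62% lower.

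Lcn2 encodes lipocalin 2, which binds bacterial siderophores and so withholds iron from bacteria. It read 15.68, 16.47 and 15.94 in day 3 resected glands and 8.96, 8.58 and 9.18 in mock glands. No day 3 resected array came near the mock arrays. The difference was 7.12 ± 0.35 (log2 ± SE, adjusted p = 3.19e-07, limma), with a 95% interval of 6.37 to 7.87, the rank of 5 from the top among 22206 transcript clusters.

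Clu encodes clusterin, a secreted chaperone that binds misfolded proteins and cell debris. Its values were 15.98, 16.16 and 15.55 in day 3 resected glands and 9.11, 8.93 and 10.02 in mock glands. The day 3 resected arrays lay close together, and mock replicate 3 was the highest of its group. Clu rose by 6.54 ± 0.31 (adjusted p = 3.19e-07, limma), ranking 6.

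Serpina3n encodes a secreted inhibitor of serine proteases, counted among the mouse relatives of human alpha-1-antichymotrypsin. The day 3 resected glands had 10.79, 11.44 and 11.46, and the mock glands had 7.11, 7.74 and 7.50. The groups were well apart, with little spread within each. The rise was 3.78 ± 0.33 (adjusted p = 2.74e-05, limma).

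Saa3 encodes a serum amyloid A protein, an apolipoprotein of the acute phase that in mice is made mainly outside the liver, by macrophages and adipose tissue among others. It read 9.0, 10.91 and 8.69 in day 3 resected glands and 4.90, 5.47 and 5.36 in mock glands. Day 3 resected replicate 2 stood above the other 2 arrays of its group, and all 3 were above mock. The difference was 4.29 ± 0.49 (adjusted p = 1.95e-04, limma). In mock glands Saa3 lay at 60.6% to 72.0% of the negative controls, and in day 3 resected glands at 95.8% to 98.2%.

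Cp encodes ceruloplasmin, a copper-carrying ferroxidase of plasma. It had values of 12.44, 12.78 and 12.71 in day 3 resected glands and 11.39, 10.90 and 10.04 in mock glands. The mock arrays were the more spread. Cp rose by 1.87 ± 0.32 (adjusted p = 0.00306, limma).

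Hp encodes haptoglobin, which binds free haemoglobin. Day 3 resected glands had 9.71, 10.80 and 10.22, and mock glands had 9.39, 8.23 and 8.91. The groups did not overlap, though day 3 resected replicate 1 and mock replicate 1 were close. The difference was 1.40 ± 0.32 (adjusted p = 0.0194, limma). The call of Hp was lost when single arrays were left out: the difference was 1.09 without mock replicate 2 (adjusted p = 0.0744), 1.12 without day 3 resected replicate 2 (adjusted p = 0.0872) and 1.41 without day 3 resected replicate 3 (adjusted p = 0.066).

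The 4 genes that did not pass were dim on every array. Saa1 and Saa2 encode the serum amyloid A proteins of mouse liver, and lay at 30.6% to 56.2% and at 15.4% to 48.0% of the negative controls over the 9 arrays. Orm1, which encodes the plasma carrier orosomucoid, lay at 30.3% to 52.2%. Ptx3 encodes the long pentraxin, a pattern recognition protein made by stromal and myeloid cells, and lay at 41.5% to 59.0%. At this brightness a small change in RNA was not detectable, and a result that did not pass is not evidence of an unchanged gene.

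At day 3 their differences from mock were all under 0.40 in size. Saa2 differed by 0.30 ± 0.33 (adjusted p = 0.7, limma; 95% interval -0.42 to 1.02). Ptx3 differed by -0.02 ± 0.23 (adjusted p = 0.976), and Orm1 by -0.36 ± 0.23 (adjusted p = 0.443). Saa1 read 3.95, 4.32 and 4.16 in day 3 resected glands and 4.32, 4.34 and 4.81 in mock glands. Its groups barely missed overlapping, the direction being lower, which 11.8% of all transcript clusters also showed. The difference in Saa1 was -0.35 ± 0.22 (adjusted p = 0.437). Saa1 and Saa2 are near-identical copies, and whether their probes share signal was not tested.

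**Figure D1:**
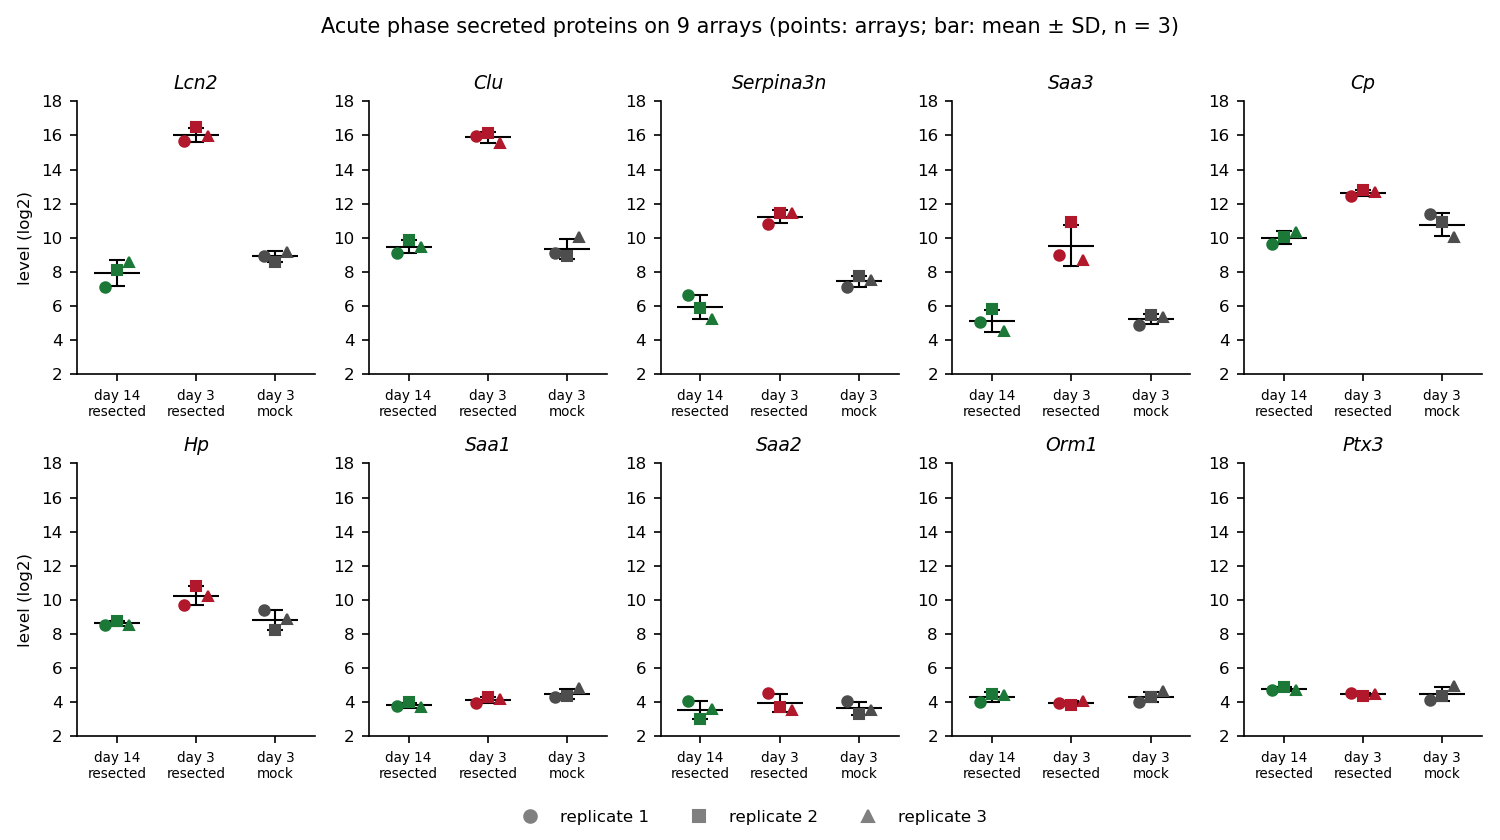
Deposited log2 values (vertical axis) of the 10 acute phase genes on each array, with points for single arrays and bars for the group mean and SD (n = 3), for day 14 resected, day 3 resected and day 3 mock glands. The day 3 resected arrays stand above both other groups for Lcn2, Clu, Saa3, Serpina3n, Cp and Hp, while Saa1, Saa2, Orm1 and Ptx3 stay between 3.00 and 4.94 in all groups.

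The promoters of 7 of the 10 genes were found in RefSeq (GRCm38.p6), as windows of 250 bases before to 50 after the transcription start, and Clu, Hp and Orm1 were not. Those shown belong to 4 genes that rose together and to 1 that did not pass. The motifs searched on both strands were TTGCNNAA for C/EBP, TTCNNNGAA for STAT, the NF-kappaB consensus, and TATAAA for the TATA box. These are held by 10.8%, 8.3%, 8.46% and 13.6% of 32851 RefSeq promoter windows. The C/EBP letters were in 6 of the 7 genes, the exception being Serpina3n, and they were in Saa1, Saa2 and Ptx3 as well as in the genes that rose. The STAT letters were in 0 of 7, the NF-kappaB consensus in Ptx3 alone (2 overlapping matches), and the TATA box in the second of the 2 windows of Cp alone (2 overlapping matches on opposite strands). A match describes letters in the window, and no array value here bears on binding. In capitals are the C/EBP matches and, for Cp, the TATA box. The windows are chr2:32387690-32387989 (minus strand) for Lcn2, chr7:46715627-46715926 (minus strand) for Saa3, chr12:104406458-104406757 (plus strand) for Serpina3n, chr3:19956999-19957298 (plus strand) for Cp, and chr7:46742931-46743230 (minus strand) for Saa1.
Lcn2: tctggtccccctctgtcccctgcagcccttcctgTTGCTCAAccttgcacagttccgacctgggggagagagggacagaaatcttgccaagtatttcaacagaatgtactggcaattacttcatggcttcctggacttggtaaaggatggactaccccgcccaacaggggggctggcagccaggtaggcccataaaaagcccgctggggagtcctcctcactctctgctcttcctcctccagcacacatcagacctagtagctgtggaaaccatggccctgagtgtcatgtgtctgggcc
Saa3: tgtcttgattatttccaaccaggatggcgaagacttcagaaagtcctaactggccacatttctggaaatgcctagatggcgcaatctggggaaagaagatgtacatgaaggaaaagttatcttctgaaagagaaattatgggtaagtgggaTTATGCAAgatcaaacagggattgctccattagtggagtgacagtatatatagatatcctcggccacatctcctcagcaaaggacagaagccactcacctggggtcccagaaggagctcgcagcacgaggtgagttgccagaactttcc
Serpina3n: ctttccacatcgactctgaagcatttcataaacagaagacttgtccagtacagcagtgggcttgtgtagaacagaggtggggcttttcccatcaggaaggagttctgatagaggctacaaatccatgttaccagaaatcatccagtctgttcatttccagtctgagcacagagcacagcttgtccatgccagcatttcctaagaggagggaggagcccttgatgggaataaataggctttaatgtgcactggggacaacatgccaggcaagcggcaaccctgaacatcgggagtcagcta
Cp: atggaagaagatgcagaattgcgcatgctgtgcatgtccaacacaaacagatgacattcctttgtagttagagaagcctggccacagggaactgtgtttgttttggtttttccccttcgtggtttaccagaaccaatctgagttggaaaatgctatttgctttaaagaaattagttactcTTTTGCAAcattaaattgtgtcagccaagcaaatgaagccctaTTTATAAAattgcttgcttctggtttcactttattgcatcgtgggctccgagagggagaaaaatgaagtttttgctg
Saa1: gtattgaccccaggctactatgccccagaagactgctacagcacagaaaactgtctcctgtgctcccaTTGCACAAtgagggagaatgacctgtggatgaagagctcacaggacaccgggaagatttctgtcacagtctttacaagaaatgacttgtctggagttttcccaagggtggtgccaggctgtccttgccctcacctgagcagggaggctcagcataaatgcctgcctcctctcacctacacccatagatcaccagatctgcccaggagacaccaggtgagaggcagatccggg

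The C/EBP match began at -216 in Lcn2, -99 in Saa3, -70 in Cp and -182 in Saa1, counted from the transcription start. The Saa1 and Saa2 windows were 95.3% identical over their alignment, and that of Saa3 was 54.2% identical to the Saa1 window.

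Genes that feed this response were described as 3 lists, whose counts stand beside the 4.92% of all transcript clusters that rose and the 1.36% that fell at day 3. Of 14 inducing cytokines measured, 0 rose and 0 fell, with 1 higher and 1 lower at an unadjusted p under 0.05 (limma). Il6, the main inducer in the liver, differed by 0.59 ± 0.38 (adjusted p = 0.451), and its values were 3.02, 2.94 and 4.40 in day 3 resected glands and 2.69, 3.02 and 2.87 in mock glands. Day 3 resected replicate 3 was the one array that stood out. Il1b differed by 0.04 ± 0.40 (adjusted p = 0.976), Tnf by 0.41 ± 0.19 (adjusted p = 0.263) and Osm by -0.09 ± 0.19 (adjusted p = 0.866). The count of cytokines that fell was 1 without mock replicate 3, without day 3 resected replicate 1 or after median centring. Leaving out 1 array at a time, the difference of Il6 ran from 0.12, without day 3 resected replicate 3, to 0.85. The median over the cytokines was 0.02, against -0.06 over all transcript clusters. Their mean level was 3.86 to 4.06 on the 9 arrays, where the medians of the negative controls were 4.41 to 4.77. Il6, Tnf and Osm read below that median on every array, while Il1b read above it. At such low levels a small change in RNA was not detectable, and a result that did not pass is not evidence of an unchanged gene.

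Of 13 cytokine receptors measured, 1 rose and 0 fell. It was Osmr, the receptor chain for oncostatin M, at 6.53, 6.20 and 6.92 in day 3 resected glands and 5.28, 5.64 and 4.99 in mock glands. All 3 day 3 resected arrays exceeded mock. The difference was 1.25 ± 0.26 (adjusted p = 0.00973, limma), and without day 3 resected replicate 3 it was 1.06 (adjusted p = 0.0553). Il6st, which encodes gp130, differed by 0.48 ± 0.28 (adjusted p = 0.407), and Il6ra by 0.34 ± 0.28 (adjusted p = 0.577).

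Of 25 signal transducers and transcription factors, 1 rose and 0 fell. This was Rel, an NF-kappaB subunit of lymphoid and myeloid cells, with a difference of 1.38 ± 0.27 (adjusted p = 0.00784, limma). Stat3 differed by 0.25 ± 0.24 (adjusted p = 0.644) and its target Socs3, a feedback inhibitor, by 0.24 ± 0.22 (adjusted p = 0.635). Cebpb differed by 0.36 ± 0.27 (adjusted p = 0.541), Cebpd by 0.73 ± 0.45 (adjusted p = 0.43) and Nfkbiz by 0.62 ± 0.24 (adjusted p = 0.172). Leaving out 1 array at a time, Cebpd was lowest at 0.27 with day 3 resected replicate 3 omitted, and highest at 1.28 with mock replicate 2 omitted. Cebpb was lowest at 0.085 with day 3 resected replicate 1 omitted, and highest at 0.55 with mock replicate 2 omitted. Transcript level alone was measured, and phosphorylation or protein was not.

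Of 27 measured genes listed as other acute phase genes, 9 rose and 0 fell at day 3, against 4.92% and 1.36% of all transcript clusters. The 9 were Plin2, Il1rn, Cfb, Serping1, Lbp, Lrg1, Cd14, C4b and Steap4. The list median was 0.08, and its differences ran from -0.75 to 3.30. Cd14 is also on the list of macrophage markers, so its rise is counted in both lists. Lbp, which delivers bacterial lipopolysaccharide to CD14, read 7.24, 8.30 and 7.81 in day 3 resected glands and 6.09, 6.21 and 6.00 in mock glands. It rose by 1.69 ± 0.28 (adjusted p = 0.00299, limma). Il1rn, the natural antagonist of the interleukin 1 receptor, rose by 2.01 ± 0.28 (adjusted p = 0.000727), and Cfb, a complement factor, by 1.97 ± 0.25 (adjusted p = 0.000393). Plin2, a lipid droplet coat protein, had the largest difference of the list, 3.30 ± 0.42 (adjusted p = 0.000376). C3 was not analysed here.

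Proteins that lower in plasma during an acute phase response form the negative list, with 10 genes measured. Of these 1 rose and 0 fell (1 fell after median centring), to be read against the same 4.92% and 1.36%. The gene that rose was Trf, which encodes the iron carrier transferrin, at 10.94, 11.52 and 11.76 in day 3 resected glands and 9.82, 10.36 and 9.08 in mock glands. All day 3 resected arrays lay above mock, and the difference was 1.66 ± 0.32 (adjusted p = 0.00698, limma). Alb, albumin, differed by 0.37 ± 0.22 (adjusted p = 0.414) and read 3.41 to 4.19 on the 9 arrays.

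Relatives of the 10 genes by family gave counts that are to be read against the same 4.92% and 1.36%. Of 13 measured serpins of the A3 and A1 clades and other antiproteases, 0 rose and 0 fell (limma; 1 higher and 1 lower at an unadjusted p under 0.05). The A3 serpins are near copies of each other, and cross-hybridisation between them and Serpina3n was not tested. Of 15 other lipocalins, pentraxins and ferroxidases, 0 rose and 0 fell (0 higher and 1 lower at an unadjusted p under 0.05), with a median of -0.27. The mean level of these 15 was 3.15 to 3.63 on the 9 arrays, below the medians of the negative controls, 4.41 to 4.77. At that level a small change in RNA was not detectable, so the counts are not evidence of unchanged genes.

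Genes for the receptors and clearance of these proteins were also counted against the 4.92% of all transcript clusters that rose and the 1.36% that fell. Of 15 measured, 3 rose (Hmox1, Cd163 and Lrp1) and 1 fell (Slc22a17). Slc22a17 encodes a receptor reported to bind lipocalin 2. It read 8.90, 8.93 and 7.85 in day 3 resected glands and 10.02, 9.82 and 9.95 in mock glands, the groups not overlapping. It fell by 1.37 ± 0.29 (log2 difference -1.37, adjusted p = 0.0116, limma).

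Cd163 is the macrophage receptor for haptoglobin and haemoglobin complexes. Its values were 7.21, 8.22 and 7.31 in day 3 resected glands and 6.72, 5.49 and 5.12 in mock glands, where replicate 1 was nearest to the day 3 resected arrays. The difference was 1.81 ± 0.45 (adjusted p = 0.0316, limma). It was 1.66 without mock replicate 2 (adjusted p = 0.108), 1.47 without mock replicate 3 (adjusted p = 0.116), 1.49 without day 3 resected replicate 2 (adjusted p = 0.131) and 1.94 without day 3 resected replicate 3 (adjusted p = 0.0707), none of which passed, and 1.65 after quantile normalization (adjusted p = 0.0552). Hmox1, the enzyme that breaks down the haem so delivered, read 11.11, 11.52 and 14.07 in day 3 resected glands and 7.25, 7.06 and 7.50 in mock glands. Day 3 resected replicate 3 was far above the other 2 arrays of its group. Hmox1 rose by 4.96 ± 0.56 (adjusted p = 0.00018, limma). Lrp1, an endocytic receptor, rose by 1.44 ± 0.32 (adjusted p = 0.0144) and was no longer called when mock replicate 1 (1.39, adjusted p = 0.0521), mock replicate 3 (1.37, adjusted p = 0.0526), or replicate 3 of day 3 resected (1.06, adjusted p = 0.0531) was dropped. The count of 3 was 1 without mock replicate 3 or without day 3 resected replicate 3.

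Several of the 10 genes act in iron handling. Set against 4.92% and 1.36% of all transcript clusters, 5 of 17 genes of that pathway rose and 0 fell at day 3. They were Hmox1, Slc11a1, Trf, Steap3 and Ftl1. Hmox1 is also counted in the clearance list and Trf in the negative list, so these counts are not separate. Slc11a1, the phagosomal metal transporter of macrophages, read 8.43, 9.26 and 10.25 in day 3 resected glands and 6.31, 5.33 and 5.43 in mock glands. The difference was 3.62 ± 0.39 (adjusted p = 0.000137, limma). Ltf, which encodes the neutrophil iron binder lactoferrin, read 3.98, 3.59 and 4.30 in day 3 resected glands and 3.44, 3.18 and 3.81 in mock glands, groups that overlapped. Ltf did not pass (0.48, adjusted p = 0.333). Steap3, an endosomal iron reductase, rose by 1.46 ± 0.34 (adjusted p = 0.0209), and lost its call when any of 4 arrays was left out: mock replicate 2 gave 1.47 (adjusted p = 0.0592), mock replicate 3 gave 1.12 (adjusted p = 0.078), and day 3 resected replicates 2 and 3 gave 1.51 (adjusted p = 0.0547) and 1.17 (adjusted p = 0.103).

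**Figure D2:**
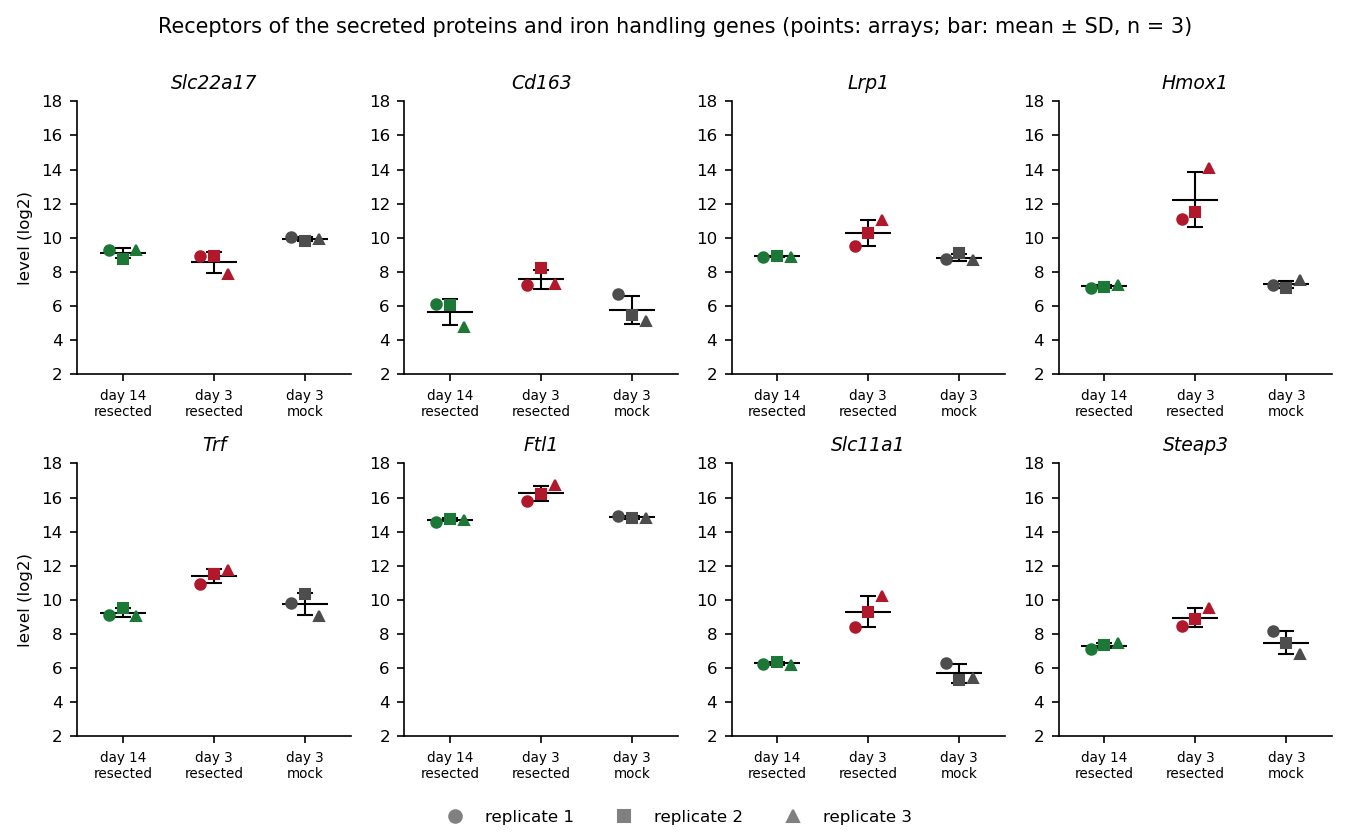
Deposited log2 values (vertical axis) of genes for receptors, clearance and iron handling on each array, with points for arrays and bars for the group mean and SD (n = 3), for day 14 resected, day 3 resected and day 3 mock glands. Hmox1, Slc11a1 and Trf stand highest at day 3 after resection, and the mock arrays are highest for Slc22a17.

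Markers of several cell types also moved at day 3. Their counts, here and in the next paragraphs, are to be read against the 4.92% of all transcript clusters that rose and the 1.36% that fell. All 10 measured macrophage markers rose (limma), and the mean log2 value over them was 9.80 to 10.42 in day 3 resected glands and 6.72 to 7.40 in mock glands. Of 10 fibroblast markers, 8 rose, and their mean was 11.71 to 12.84 in day 3 resected glands and 9.36 to 10.22 in mock glands. Without day 3 resected replicate 3 or mock replicate 3 that count was 5.

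Of 14 neutrophil markers, 5 rose (3 without day 3 resected replicate 2 or replicate 3), with means of 4.71 to 5.24 in day 3 resected glands and 3.97 to 4.05 in mock glands. Retnlg rose by 4.53 ± 0.43 (adjusted p = 4.58e-05, limma) and S100a8 by 2.86 ± 0.36 (adjusted p = 0.00034). Lactoferrin and the other granule genes Camp (0.35, adjusted p = 0.432) and Ngp (-0.61, adjusted p = 0.164) did not pass. Hepatocyte markers averaged 3.67 to 3.90 in day 3 resected glands and 3.84 to 4.17 in mock glands, and 0 of 10 rose or fell (limma; 0 higher and 2 lower at an unadjusted p under 0.05). After median centring 2 hepatocyte markers fell, and without day 14 resected replicate 1 the count was 1. The hepatocyte means lay below the median of the negative controls on every array (medians of 4.41 to 4.77), where a small change was not detectable. Adipocyte markers averaged 5.83 to 6.48 in day 3 resected glands and 5.98 to 6.81 in mock glands, and 0 of 10 rose (limma; 0 higher and 1 lower at an unadjusted p under 0.05).

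Of 15 acinar and duct markers, 1 rose and 4 fell at day 3, the count of 4 being 1 without day 3 resected replicate 3. The 1 that rose was no longer called when any single array other than mock replicate 1 or day 3 resected replicate 1 was left out. Of 8 endothelial markers 0 rose and 0 fell (2 higher at an unadjusted p under 0.05, limma). Of 3 sublingual mucous markers measured, 0 passed at day 3 (limma; 1 higher at an unadjusted p under 0.05). Creb3l1 and Galnt12 differed by 0.01 and 0.001, and Dcpp3 by 7.98 (adjusted p = 0.0563). The count was 1 with day 3 resected replicate 2 left out, and also after median centring, with a variance trend, and without the dimmest transcript clusters or those at the ceiling. Dcpp3 read 17.06, 19.71 and 14.05 in day 14 resected glands, 16.70, 7.80 and 19.69 in day 3 resected glands, and 6.28, 8.17 and 5.80 in mock glands. Day 3 resected replicate 2 was low for it, and replicates 1 and 3 were high. The part of these markers in the results on the acute phase genes was not tested.

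**Figure D3:**
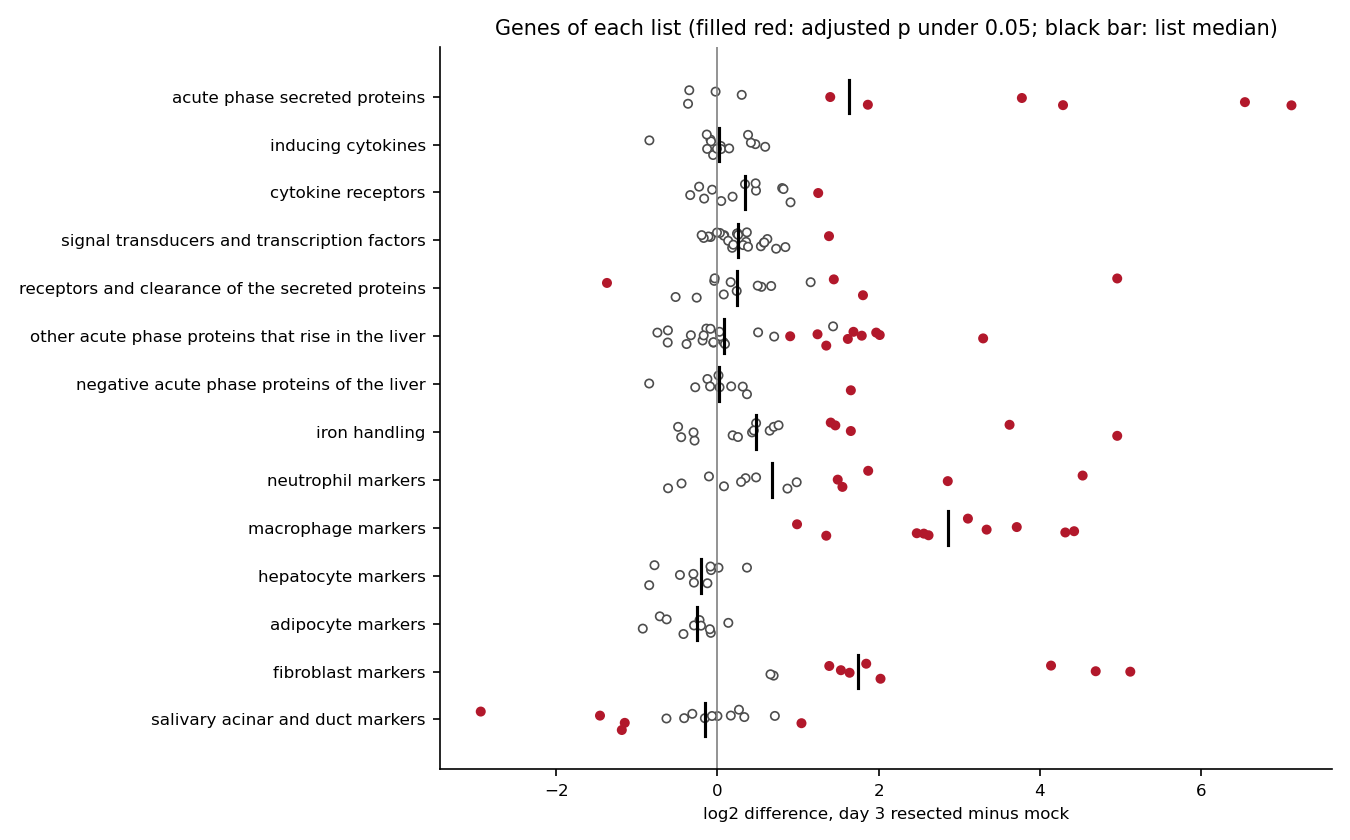
Log2 differences (horizontal axis) of single genes between day 3 resected and mock glands, one row per gene list, with filled red points for genes past the adjusted threshold and a bar at each median. The acute phase secreted proteins have a median of 1.63, while the macrophage markers lie further to the right with a median of 2.86 and the cytokines lie near 0.

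At day 14, none of the 10 genes passed the adjusted threshold against mock. Of all transcript clusters, 0.153% did. At an unadjusted p under 0.05 (limma), 4 of 10 were lower and 0 higher, while 4.58% of all transcript clusters were lower and 3.6% higher. The 4 were Serpina3n, Saa1, Lcn2 and Cp. The median of the 10 genes was -0.16, against -0.0012 over all transcript clusters. In 3 of the 4, Cp being the exception, every day 14 resected array lay below every mock array, as did 6.99% of all transcript clusters. The 4 had been picked by their p-values on the same arrays, so this adds no support.

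Serpina3n had values of 6.63, 5.91 and 5.24 in day 14 resected glands and 7.11, 7.74 and 7.50 in mock glands. It lay at 65.2% to 83.8% of the negative controls in day 14 resected glands and at 90.5% to 93.2% in mock glands. Its difference was -1.53 ± 0.33 (adjusted p = 0.137, limma), with a 95% interval of -2.25 to -0.81. That interval is not adjusted for the number of transcript clusters, and the adjusted p misses the threshold. Lcn2 read 7.09, 8.11 and 8.56 in day 14 resected glands and 8.96, 8.58 and 9.18 in mock glands. The highest day 14 resected array was almost level with the lowest mock array. Among the negative controls, Lcn2 lay at 88.3% to 95.4% in day 14 resected glands and at 95.7% to 96.8% in mock glands. The difference in Lcn2 was -0.98 ± 0.35 (adjusted p = 0.488), and its 95% interval was -1.73 to -0.23. Leaving out 1 array at a time, it ran from -1.30 to -0.57, the latter without day 14 resected replicate 1.

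Cp read 9.63, 10.05 and 10.36 in day 14 resected glands and 11.39, 10.90 and 10.04 in mock glands, the groups overlapping. Its difference was -0.76 ± 0.32 (adjusted p = 0.568, limma). With 1 array left out at a time it ran from -1.13 to -0.46, the latter without mock replicate 1. Saa1 differed by -0.67 ± 0.22 (adjusted p = 0.431), among values that lie within the range of the negative controls. Saa3 differed by -0.11 ± 0.49 (adjusted p = 0.975), Clu by 0.13 ± 0.31 (adjusted p = 0.947) and Hp by -0.22 ± 0.32 (adjusted p = 0.899). The groups overlapped in these last 3 genes. Saa2, Orm1 and Ptx3 differed by -0.08, -0.01 and 0.30. Of the 17 gene lists, none held a gene that passed at day 14, with 1 exception among the alternatives. There, 1 of the 3 sublingual mucous markers was higher with only the groups compared or without day 3 resected replicate 2. At an unadjusted p under 0.05 (limma), 3 of 10 fibroblast and 2 of 10 macrophage markers were higher and 0 lower, with medians of 0.77 and 0.52. Of 3 sublingual mucous markers 2 were higher, and of 10 adipocyte markers 3 were lower. Lists without a called gene are thus not shown to be back at mock level.

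**Figure D4:**
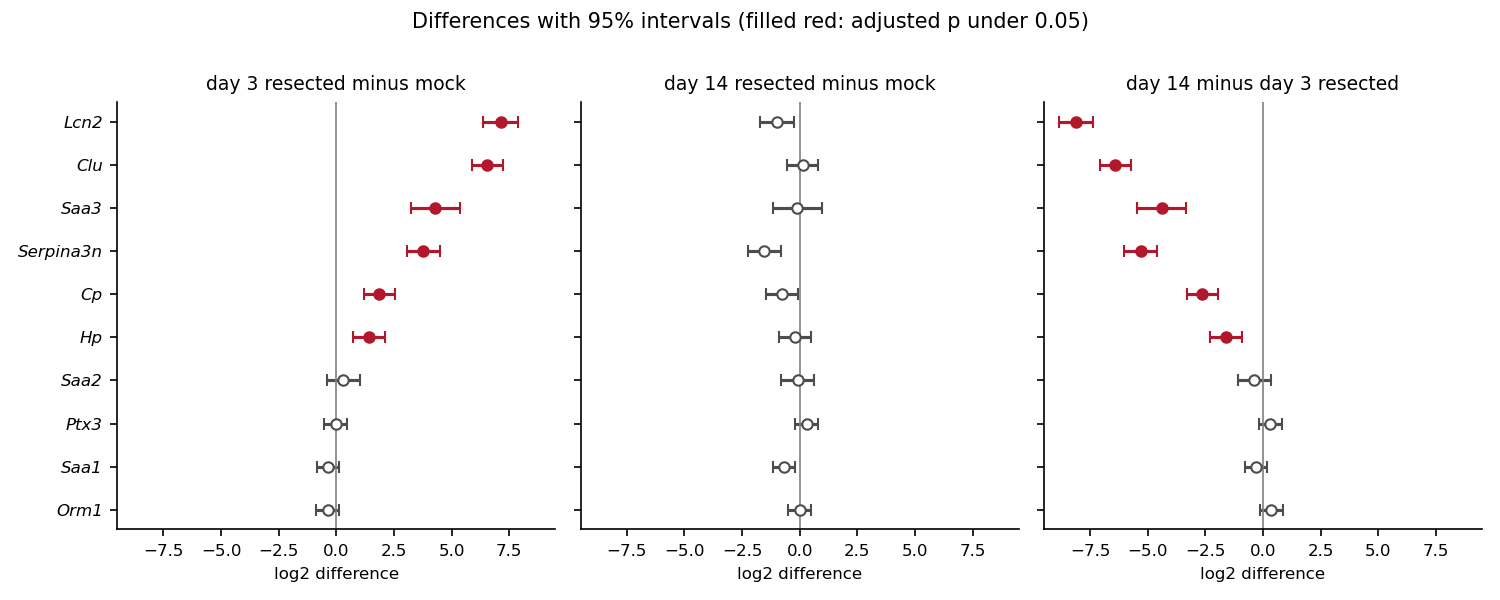
Log2 differences (horizontal axis) of the 10 acute phase genes with 95% intervals, in panels for day 3 resected minus mock, day 14 resected minus mock and day 14 resected minus day 3 resected glands, filled where the adjusted p passed. Lcn2 has the widest swing, at -8.11 between the days and 7.12 at day 3 against mock, while every day 14 difference from mock lies between -1.53 and 0.30.

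At day 14, set against day 3 after resection, the 6 genes that rose at day 3 all fell, and 0 of the 10 rose. Of all transcript clusters, 4.88% fell and 1.4% rose. In each of the 6, every day 14 resected array lay below every day 3 resected array, as in 12.5% of all transcript clusters. Having passed the test on these arrays, the 6 gain no further support from that. Both groups are set against the same day 3 mock arrays, which cancel, so the differences from those arrays differ between the days by the same amount. No mock group at day 14 enters, so resection and time since surgery cannot be told apart here. Lcn2 was 7.09, 8.11 and 8.56 in day 14 resected glands and 15.68, 16.47 and 15.94 in day 3 resected glands. No values of the groups came near each other. Its difference of -8.11 ± 0.35 (adjusted p = 1.94e-07, limma) was at rank 22206 of 22206 transcript clusters.

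Clu was 9.10, 9.89 and 9.48 in day 14 resected glands and 15.98, 16.16 and 15.55 in day 3 resected glands, with no overlap. It fell by 6.41 (log2 -6.41 ± 0.31, adjusted p = 4.57e-07, limma). Serpina3n fell by 5.30 (log2 -5.30 ± 0.33, adjusted p = 2.47e-06), and Saa3 by 4.39 (log2 -4.39 ± 0.49, adjusted p = 0.00011). Saa3 read 5.06, 5.82 and 4.54 in day 14 resected glands, near its values in mock glands. Cp fell by 2.63 (log2 -2.63 ± 0.32, adjusted p = 0.00019), and Hp by 1.62 (log2 -1.62 ± 0.32, adjusted p = 0.00756).

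Cp and Hp at day 14 were 9.63, 10.05 and 10.36, and 8.53, 8.78 and 8.55. Both lay below every day 3 resected array of the same gene. Ptx3 alone of the 10 was higher on every day 14 resected array than on every day 3 resected array, at 4.70, 4.90 and 4.73 against 4.53, 4.38 and 4.46, and it did not pass (0.32 ± 0.23, adjusted p = 0.513, limma). In that direction 12.9% of all transcript clusters do not overlap. Saa1, Saa2 and Orm1 did not pass either (-0.32, -0.39 and 0.36).

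The counts of the lists between the days are to be read against the 4.88% of all transcript clusters that fell and the 1.4% that rose. Of the genes listed as other acute phase genes, 10 fell and 1 rose between the days. Cfb fell by 2.67 (log2 -2.67 ± 0.25, adjusted p = 4.13e-05, limma) and Plin2 by 3.49 (log2 -3.49 ± 0.42, adjusted p = 0.000173). The one that rose was Hamp, which encodes the iron hormone hepcidin, at 6.59, 7.11 and 6.55 in day 14 resected glands and 5.23, 5.70 and 5.18 in day 3 resected glands. Its difference was 1.38 ± 0.28 (adjusted p = 0.0088). Of the iron genes 5 fell, among them Trf (log2 -2.17 ± 0.32, adjusted p = 0.00102) and Hmox1 (log2 -5.08 ± 0.56, adjusted p = 0.000101). Among 14 inducing cytokines 0 rose and 0 fell. Osmr alone fell of 13 cytokine receptors (log2 -1.07 ± 0.26, adjusted p = 0.0245, limma). Nfkbiz alone fell of 25 signal transducers and transcription factors (log2 -0.95 ± 0.24, adjusted p = 0.0301). Both genes lost their call in some alternatives, where either count ran from 0 to 2. Cebpd did not pass (log2 -1.61 ± 0.45, adjusted p = 0.0518). Rel, which rose at day 3, did not pass between the days either (log2 -0.38 ± 0.27, adjusted p = 0.517, limma). Against mock at day 14 Rel differed by 1.01 ± 0.27 (adjusted p = 0.272, limma).

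Of the clearance list, Hmox1, Cd163 and Lrp1 fell, Hmox1 being counted among the iron genes too. Cd163 changed by -1.94 ± 0.45 (adjusted p = 0.0215, limma), and its call was lost without day 3 resected replicate 2 (-1.62, adjusted p = 0.0996), day 3 resected replicate 3 (-2.07, adjusted p = 0.0528) or day 14 resected replicate 3 (-1.49, adjusted p = 0.0937). Lrp1 lost its call when day 3 resected replicate 2 or 3, or any 1 of the day 14 resected arrays, was left out (differences of -1.40 to -0.99). The count of 3 was 1 without day 3 resected replicate 2, day 3 resected replicate 3 or day 14 resected replicate 3. Slc22a17 read 9.26, 8.77 and 9.29 in day 14 resected glands, all below the mock arrays and overlapping with day 3 resected. It differed by 0.55 ± 0.29 from day 3 (adjusted p = 0.335). Against mock it differed by -0.82 ± 0.29 (adjusted p = 0.488). Of the macrophage markers 9 of 10 fell, of the neutrophil markers 4 of 14 and of the fibroblast markers 3 of 10 (5 without mock replicate 3, with only the groups compared or with array weights). Of 15 acinar and duct markers 5 rose, among them Scnn1g (1.42 ± 0.27, adjusted p = 0.00595) and Egf (2.83 ± 0.59, adjusted p = 0.0114). Egf lost its call without day 3 resected replicate 3 (2.58, adjusted p = 0.064) or day 14 resected replicate 3 (2.21, adjusted p = 0.0519). The count of 5 was 3 without day 3 resected replicate 2 or day 14 resected replicate 1, and 1 without day 3 resected replicate 3 or day 14 resected replicate 3.

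Within groups, the 6 genes that rose at day 3 shared their deviations in part. The mean deviation from the group mean over these 6 was -0.33, 0.50 and -0.17 in day 3 resected replicates 1, 2 and 3. Replicate 2 was the highest array for Lcn2, Clu, Saa3, Cp and Hp, and was the array low in Dcpp3. The macrophage and fibroblast marker means were highest in replicate 3 (10.42 and 12.84). In day 14 resected replicates 1, 2 and 3 the mean deviation was -0.18, 0.24 and -0.06, and in the mock replicates it was 0.05, -0.12 and 0.07. The part of the Dcpp3 level in these deviations was not tested.

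The genes whose profile over the 9 arrays was nearest to each of the 10 were named by the root mean square difference of the centred log2 values, among 18451 candidates. The 10 genes themselves and predicted or Rik symbols were left out of the candidates, so nearness among the 10 is not shown. This measure describes shape and size together, and it includes the group differences. For Lcn2, whose own root mean square about its mean was 3.64, the nearest were Timp1 (1.04), Ccl8 (1.36) and Hmox1 (1.53). For Clu (own value 3.08) they were Timp1 (0.68), Ccl8 (0.84) and Wfdc17 (1.07). Lcn2 and Clu thus shared their nearest 2 candidates, a protease inhibitor and a chemokine.

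For Saa3 (own value 2.15) the nearest were Retnlg (0.47), Wfdc17 (0.55) and Mcm5 (0.65). For Serpina3n (2.26) they were Mcm5 (0.51), Uhrf1 (0.67) and Bub1 (0.67), genes of DNA replication and cell division. For Cp (1.17) they were Fbxo5 (0.26), H4c1 (0.27) and H2bc13 (0.28), and for Hp (0.81) Akr1b8 (0.20), Cdkn2c (0.21) and Ifitm1 (0.21). For Saa1, Saa2, Orm1 and Ptx3, which had own values of 0.32, 0.43, 0.26 and 0.25, the nearest were all genes of little spread.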

How the data were processed

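The authors deposited 1 table of log2 values, made with RMA in Transcriptome Analysis Console 4.0, per the labels and the submitters' processing notes. RMA subtracts background, brings arrays to a common distribution and summarises probes, so the deposited log2 differences can be compressed or stretched. No genome build or annotation version is given in the sources used here. The table has 28846 rows, and its 6640 control rows were left out of the tests.

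Symbols come from the probe annotation through Entrez identifiers and RefSeq (GRCm38.p6), and 2634 transcript clusters have none. The cluster with the highest mean stood for a symbol. limma 3.58.1 in R 4.3.3 fitted all 9 arrays in 1 model (6 residual and 6.63 prior degrees of freedom), with two-sided p-values adjusted by Benjamini and Hochberg over 22206 transcript clusters in each of 3 comparisons, at a threshold of 0.05. The fit was also run on simulated data with independent normal noise in each transcript cluster. That simulation held no effects shared by an array, so it does not show how the method performs on these glands. The number of arrays limits the precision.

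The 10 genes and the 17 lists (245 genes, 218 measured; the rest were not analysed here) were chosen with earlier results of these data known. Named genes are the 10, at most 4 called genes per list and comparison with the largest difference, a panel of 20 genes chosen for their role, and the 3 nearest profiles per gene. Genes named beyond this rule, such as Ltf, Camp, Ngp, Hamp, Dcpp3, Aqp5 and Smr3a, were chosen after their values were seen. The labels do not say that equal replicate numbers share an animal, litter or day, so no block was used. Same-number correlations of the deviations from the group means were -0.087 to 0.051, which with groups of 3 cannot settle whether samples were paired. Alternatives covered normalization, filters, weights, moderation, the block and leaving out each array. Some items are not reported here.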

Additional observations from a re-analysis of the deposited data

Results flagged for a closer look

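For 6 of the 10 genes day 14 resected glands differed from day 3 resected glands (limma), which is the comparison already given above. The day 3 mock arrays cancel in it, and no mock group at day 14 enters. The difference between day 14 and day 3, in log2, was -8.11 for Lcn2, -6.41 for Clu, -5.30 for Serpina3n, -4.39 for Saa3, -2.63 for Cp and -1.62 for Hp. The rule used here for arrays standing apart needs at least 4 arrays in a group, and it was not applied to these groups of 3.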

How the results depend on the processing

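The counts of acute phase genes called kept within 1.5 times under 18 alternatives: 5 to 6 rose at day 3, 0 passed at day 14 and 6 fell between the days. Of 12 called differences of these genes 1 lost its call in some setting, which was Hp at day 3 (also 1.40 with an adjusted p of 0.0582 when only the groups compared were fitted). Of 58 called differences of other named genes 17 lost theirs. The replicate block, for which the labels give no basis, gave 6 rising at day 3 and 6 falling between the days, as without it. Over all transcript clusters, the 301 lower at day 3 became 452 with quantile normalization, 480 with median centring, 190 with only the groups compared, and 188 or 106 without day 3 resected replicate 2 or 3. The 22 higher and 12 lower at day 14 became 36 and 20 with a variance trend. The 22 became 14 without mock replicate 2 or day 14 resected replicate 2 and 13 without day 14 resected replicate 3, and the 12 became 7 without mock replicate 1, 33 without mock replicate 3 and 6 without day 14 resected replicate 2. The 310 higher between the days became 129 to 199 without day 3 resected replicate 2 or 3 or any 1 day 14 resected array.

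Some small differences turned in sign, and the cause was not tested. With array weights, Adipoq at day 3 was -0.10 and Orm1 at day 14 was 0.021. With quantile normalization, at day 3 Il1b was -0.10, Osm 0.0042 and Ptx3 0.0066, and with median centring Il1b was -0.033. Leaving out 1 array at a time gave, at day 3, ranges of -0.57 to 0.78 for Adipoq, -0.33 to 0.48 for Il1b, -0.20 to 0.21 for Ptx3 and -0.011 to 0.51 for Saa2. At day 14 it gave -0.080 to 0.46 for Clu, -0.53 to 0.053 for Hp, -0.16 to 0.15 for Orm1, -0.33 to 0.19 for Saa2 and -0.45 to 0.19 for Saa3. The alternative of taking the lowest cluster per symbol gave no value, as each gene has 1. The dim levels of Saa1, Saa2, Orm1 and Ptx3 limit what can be seen.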
